A study of Mus musculus with 12 samples.

Results

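Aminoacyl-tRNA synthetases attach each amino acid to its transfer RNA, and so supply the ribosome with charged tRNA. The cytosol and the mitochondrion use mostly separate enzymes, both encoded in the nucleus, and the mitochondrial ones carry symbols ending in 2. In the cytosol, several synthetases are held together with small scaffold proteins in the multisynthetase complex. Dominant mutations in some cytosolic synthetase genes, Gars among them, cause Charcot-Marie-Tooth disease, a peripheral neuropathy, and several cytosolic synthetase genes are known targets of ATF4, the transcription factor of the integrated stress response.

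The genes described here are 34 of the 38924 in the deposited tables. They were chosen by symbol: 7 cytosolic enzymes of the multisynthetase complex, 8 cytosolic enzymes or subunits outside it, 3 scaffold genes and 16 mitochondrial enzymes. The 6 cytosolic synthetase genes tied to Charcot-Marie-Tooth disease (Gars, Yars, Aars, Hars, Mars and Wars) are used only for comparison. Whole spinal cord was sequenced from 12 mice aged 8 weeks on a mixed B6J;CAST background. Wild type (WT) mice, 3 females and 3 males, were compared with mice heterozygous for Gars P278KY, 3 females and 3 males, an allele of the glycyl-tRNA synthetase gene. Each mouse gave 1 library, named here by group and mouse number.

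Libraries held 26982140 to 39339999 expected counts, and Xist and Y-linked transcripts matched the labelled sex in 12 of 12. Neuron, oligodendrocyte, astrocyte and microglia markers were present in every library. Summed skeletal muscle markers were above 1000 CPM (counts scaled to 1e+06 per library) in 4 libraries, mice 1 to 4, all female, and ran over the series from 95.5 to 9508 CPM in WT and from 98.7 to 3571 CPM in P278KY. Sensory ganglion markers were highest in P278KY male 7 (67.6 CPM), WT female 10 (33.4 CPM) and WT male 11 (26.1 CPM). Motor neuron markers summed to 188.6 to 274.9 CPM in WT and 131 to 161 CPM in P278KY. In the genotype test described below, 5 of 7 were called lower, against 2.95% of all tested genes. Schwann cell markers summed to 2313 to 3349 against 1268 to 2354 CPM, ranges that overlap, with 2 of 7 called lower. Of 8 sensory ganglion markers 1 was called higher, and of 5 neuron markers 1 was called higher and 1 lower. In bulk tissue, fewer cells of a type and less RNA per cell cannot be told apart.

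Of the 34 genes, 3 rose in P278KY cord and none fell. The risers were Cars, Lars and Iars, the cytosolic synthetases for cysteine, leucine and isoleucine. All 34 passed the filter on low counts and were tested among 17980 genes with edgeR's quasi-likelihood test on counts, with sex as a term and a Benjamini-Hochberg adjusted p under 0.05 as the threshold. Over all tested genes 5.32% were called, 2.36% higher and 2.95% lower. The 15 cytosolic enzymes held all 3 calls and had a median log2 change of 0.08, the 3 scaffolds 0.04 and the 16 mitochondrial enzymes -0.02, beside -0.003 over all tested genes. In CPM, 5 of the 34 had all 6 P278KY mice above all 6 WT mice (Cars, Lars, Iars, Eprs and Vars), against 1.73% of all tested genes. None had all P278KY mice below all WT mice; in either direction 3.73% of all tested genes did not overlap.

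**Figure D1:**
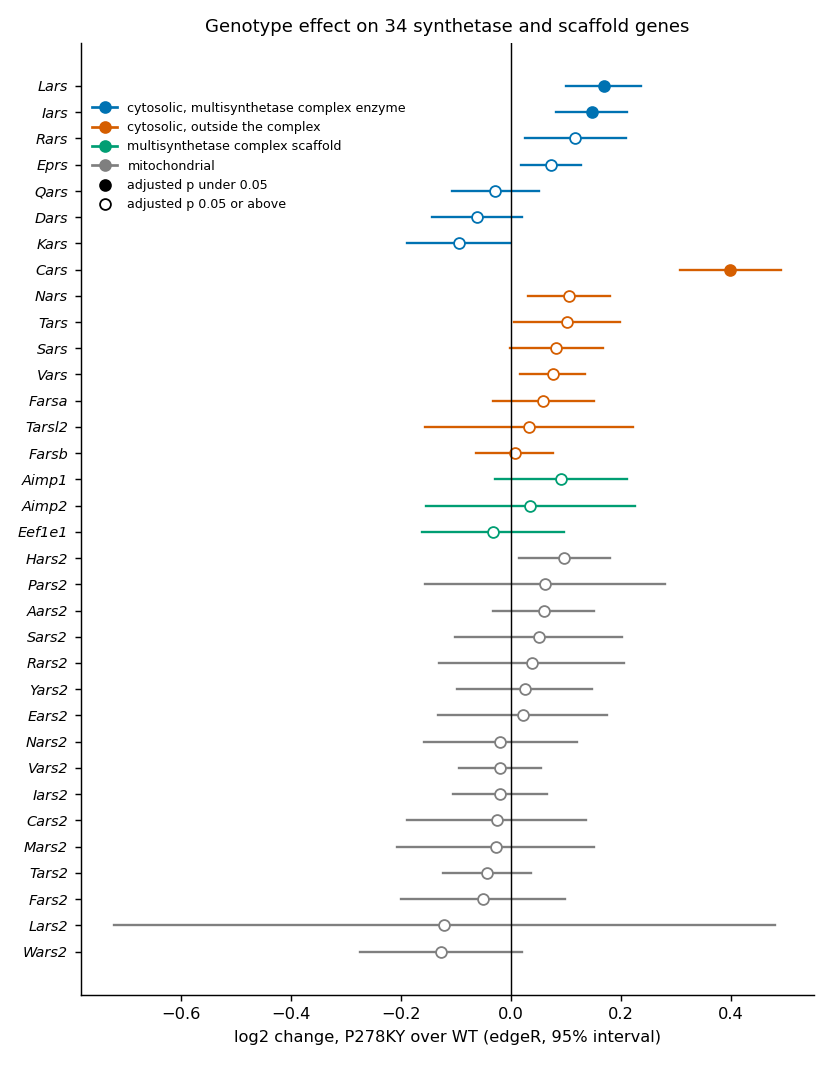
Fitted log2 change, P278KY over WT, of each of the 34 genes with its 95% interval, grouped and coloured by role; filled points passed the threshold. Cars stands at 0.40, Lars and Iars at 0.17 and 0.15, and the interval of Lars2 runs from -0.72 to 0.48.

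Cars, on the minus strand of chromosome 7 (143557230 to 143600090, GENCODE M21, GRCm38), showed the largest change. Its level in WT mice was 32.7 CPM at the lowest, 34.7 at the median and 38.0 at the highest. In P278KY mice these were 43.7, 45.9 and 49.4 CPM, so the genotypes did not overlap. The mean went from 34.9 ± 2.32 to 46.1 ± 2.10 CPM (SD, n = 6 each), a 1.32-fold difference. The log2 change was 0.40 (SE 0.04, 95% interval 0.31 to 0.49; edgeR adjusted p = 0.000217). Cars was also called without the 4 muscle-rich libraries (0.38, adjusted p = 0.0110) and without the 3 libraries with most ganglion RNA (0.39, adjusted p = 0.00179). The processed pseudogene Gm15580 lies across from it on the other strand and shares 2.05% of the 75-base stretches of Cars transcripts. Gm15580 had 1 to 15 expected counts per library, where Cars had 895 to 1892.

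Lars, which charges leucine tRNA and is known also as a leucine sensor of the mTORC1 pathway, lies on the minus strand of chromosome 18 (42202298 to 42262194). WT mice stood at 41.9, 44.3 and 46.0 CPM (lowest, median and highest) and P278KY mice at 47.9, 49.2 and 51.0 CPM. The highest WT mouse was below the lowest P278KY mouse by a small margin. Means were 43.9 ± 1.48 and 49.3 ± 1.45 CPM (SD, n = 6 each), a log2 change of 0.17 (SE 0.03; edgeR adjusted p = 0.00801).

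Iars, on the plus strand of chromosome 13 (49682100 to 49734267), stood at 92.6, 101 and 103 CPM in WT mice and at 107, 111 and 113 CPM in P278KY mice. The 2 sets did not overlap, and WT female 1 was the low WT mouse. Means were 99.9 ± 3.75 and 110.6 ± 2.42 CPM (SD, n = 6 each), a log2 change of 0.15 (SE 0.03; edgeR adjusted p = 0.0135). Of the 75-base stretches in Iars transcripts, 2.73% are also in Gm4849, a gene that the authors' data do not list. Reads from it on those stretches could be counted in Iars, which was not tested.

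The calls of Lars and Iars did not hold in smaller sets of mice, while their changes stayed near the same size. Without mice 1 to 4 the log2 changes were 0.16 and 0.13 (edgeR adjusted p = 0.0687 and 0.0644). Without mice 7, 10 and 11 they were 0.15 and 0.16 (adjusted p = 0.126 and 0.0770). These sets have 8 and 9 mice, and the calls over all genes fell from 956 to 557 and 253.

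**Figure D2:**
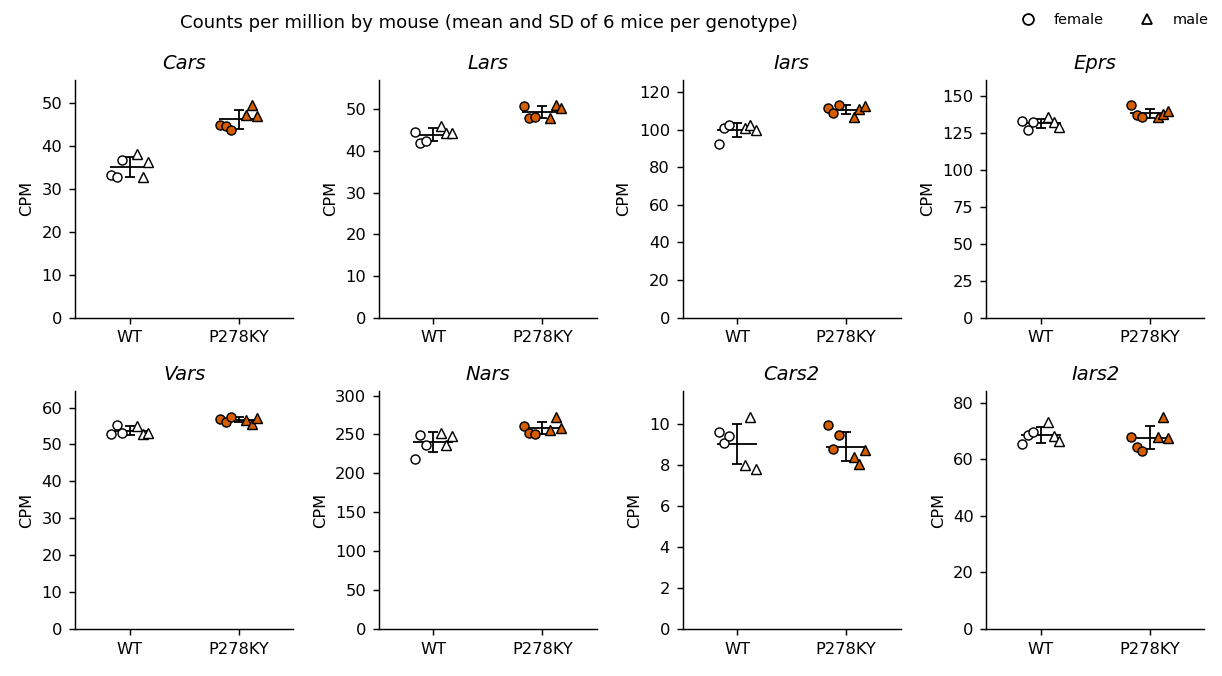
CPM of 8 genes in each mouse, WT in white and P278KY in orange, females as circles and males as triangles, with the mean and SD of 6 mice. For Cars, Lars, Iars, Eprs and Vars the genotypes do not overlap; for Nars, Cars2 and Iars2 they do.

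The other 5 enzymes of the multisynthetase complex did not pass the threshold. Eprs, a fused enzyme for glutamate and proline, had 127, 132 and 135 CPM in WT mice (lowest, median, highest) and 136, 137 and 143 CPM in P278KY mice. The margin between its genotypes was the narrowest of the 5 that did not overlap, and its log2 change was 0.07 (SE 0.03; edgeR adjusted p = 0.127). Rars, the arginine enzyme, had 31.3 ± 0.883 and 33.99 ± 2.56 CPM (WT and P278KY; SD, n = 6 each), a log2 change of 0.12 (SE 0.04; edgeR adjusted p = 0.139). The aspartate, glutamine and lysine enzymes had values below 0: Dars -0.06 (SE 0.04), Qars -0.03 (SE 0.04) and Kars -0.10 (SE 0.04). Kars had 75.3 to 87.2 CPM in WT and 71.8 to 80.7 CPM in P278KY mice, which overlap (edgeR adjusted p = 0.240).

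Outside the complex, Cars was the 1 of 8 called, and all 8 had a value above 0, as did 48.9% of all tested genes. Vars, the valine enzyme, had 52.8, 53.2 and 55.3 CPM in WT mice and 55.6, 56.8 and 57.6 CPM in P278KY mice, with no overlap. Its log2 change was 0.08 (SE 0.03; edgeR adjusted p = 0.134). Nars, the asparagine enzyme, had 218, 243 and 252 CPM in WT and 251, 257 and 273 CPM in P278KY mice. Only the top of its WT range met the P278KY range, and its log2 change was 0.11 (SE 0.03; edgeR adjusted p = 0.0969). Tars, for threonine, and Sars, for serine, had values of 0.10 (SE 0.04) and 0.08 (SE 0.04), with edgeR adjusted p = 0.221 and 0.262. The smallest values were those of Farsb at 0.01 (SE 0.03), Tarsl2 at 0.03 (SE 0.09) and Farsa at 0.06 (SE 0.04). Farsa and Farsb encode the subunits of the phenylalanine enzyme, and Tarsl2 is a second cytosolic threonine enzyme.

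The scaffold genes were not called. Aimp1 had 30.6 ± 1.59 CPM in WT and 32.6 ± 2.56 in P278KY cord (SD, n = 6 each), a log2 change of 0.09 (SE 0.06; edgeR adjusted p = 0.402). Aimp2 was at 11.1 ± 1.38 and 11.4 ± 1.29 CPM, a log2 change of 0.04 (SE 0.09). Eef1e1, which encodes the scaffold also called AIMP3, was at 14.5 ± 1.06 and 14.1 ± 1.19 CPM, a log2 change of -0.03 (SE 0.06).

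None of the 16 mitochondrial enzymes was called. The smallest adjusted p was that of Hars2, the histidine enzyme, at 0.171 (edgeR; log2 change 0.10, SE 0.04). Hars2 had 20.3, 21.2 and 22.8 CPM in WT mice and 22.2, 23.0 and 23.7 CPM in P278KY mice, so the ranges met. The other values farthest above 0 were Pars2, for proline, at 0.06 (SE 0.10) and Aars2, for alanine, at 0.06 (SE 0.04). Farthest below 0 were Wars2, for tryptophan, at -0.13 (SE 0.07; 7.83 ± 0.626 CPM in WT and 7.16 ± 0.282 in P278KY, SD, n = 6 each), Lars2 at -0.12 (SE 0.27) and Fars2 at -0.05 (SE 0.07). At an unadjusted p under 0.05, 1 of 16 passed, against 20.2% of all tested genes, and DESeq2's Wald test called none. The 95% interval of the change lay inside 1.25-fold in either direction for 15 of the 16, with Lars2 the exception. Over the 34 genes it did so for 32, and Cars was the other exception. Whether the mitochondrial and cytosolic groups differ was not tested.

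The comparison lists were chosen with earlier results of these data known. Among them, 3 of 6 Charcot-Marie-Tooth linked enzymes rose, against 2.36% of all tested genes, with a median log2 change of 0.14. They were Mars, for methionine (0.21, SE 0.03), Wars, for tryptophan (0.20, SE 0.03), and Gars itself (0.13, SE 0.03; edgeR adjusted p = 0.00178, 0.00465 and 0.0460). Of 32 other ATF4 targets, 16 rose, against the same 2.36%, with a median of 0.37. Beside the 0.40 of Cars, Mthfd2, a mitochondrial folate enzyme, had a log2 change of 0.39 (SE 0.05) and Asns, which makes asparagine, one of 0.28 (SE 0.04). Both lie on chromosome 6 with Gars, 28.3 and 47.4 Mb from it, in mice of a mixed background. An effect of linked alleles on them cannot be told apart from one of genotype, and the same holds for Gars itself. Among called targets on other chromosomes, Slc7a3 was at 0.76 (SE 0.07), Slc7a1 at 0.55 (SE 0.05), Psph at 0.32 (SE 0.06) and Shmt2 at 0.23 (SE 0.05). Of 19 genes that handle tRNA before or after charging (amidotransferase subunits, editing enzymes, elongation factors, the export factor Xpot), none was called, with a median of -0.02. In the same mice 5 of 7 motor neuron markers and 2 of 7 Schwann cell markers were called lower, and the Schwann cell sums overlapped between genotypes. The part of these cells in the synthetase values was not tested.

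Synthetases fall into class I and class II by the fold of the catalytic domain, a grouping applied here after the values were seen. Of the 6 class I cytosolic genes (Cars, Iars, Lars, Qars, Rars and Vars), 3 rose, against 2.36% of all tested genes. Their median log2 change was 0.13. At an unadjusted p under 0.05 with edgeR, 5 of the 6 passed, all 5 higher, against 20.2% of all tested genes. Of the 8 class II genes (Dars, Farsa, Farsb, Kars, Nars, Sars, Tars and Tarsl2), 0 rose at the adjusted threshold, and the median was 0.05. At an unadjusted p under 0.05 with edgeR, 3 of the 8 passed, Nars and Tars higher and Kars lower, and DESeq2's Wald test called Nars. Eprs, which joins an enzyme of each class, was left out of both. With the Charcot-Marie-Tooth linked genes added, 5 of 9 rose in class I and 1 of 11 in class II, against the same 2.36%. The class II riser was Gars, with the limit on linked alleles given above. The classes were thus set side by side with the calls that were seen first. The difference between the classes was not tested.

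Promoters were read for the members that had an entry among RefSeq windows (250 bases before to 50 after the gene's start, GRCm38.p6), which was the case for 27 of the 34. Lars, Rars, Cars, Nars, Vars, Hars2 and Pars2 have no entry. The C/EBP-ATF response element, the motif through which ATF4 acts, was searched as TGATGNAA on both strands. It was in Iars and Tars among the 27 members and in 3.97% of 32851 promoters. It was also in Gars, Yars and Aars, the 3 Charcot-Marie-Tooth linked genes with an entry, and in 9 of the 27 ATF4 targets with one. Windows are shown for Iars and Tars, for Gars and Yars, and for Fgf21, the ATF4 target with the largest change of that list. Of these synthetase genes, Iars and Gars rose. Yars did not pass the threshold (edgeR adjusted p = 0.0744), and nor did Aars (edgeR adjusted p = 0.191), whose window is not shown. Aars also holds TTGCATCA. Each window is written on the gene's strand, and capitals mark the match.
Iars (chr13:49682107-49682154, plus strand): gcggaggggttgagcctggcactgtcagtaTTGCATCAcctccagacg
Tars (chr15:11399636-11399703, minus strand): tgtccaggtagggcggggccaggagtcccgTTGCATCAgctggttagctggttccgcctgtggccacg
Gars (chr6:55037941-55038008, plus strand): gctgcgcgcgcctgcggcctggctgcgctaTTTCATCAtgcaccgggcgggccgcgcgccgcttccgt
Yars (chr4:129189876-129189927, plus strand): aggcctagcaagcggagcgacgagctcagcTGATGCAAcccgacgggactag
Fgf21 (chr7:45615592-45615659, minus strand): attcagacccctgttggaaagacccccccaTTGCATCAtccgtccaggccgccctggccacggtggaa
In Iars the match begins 7 bases after the start and in Tars 15 bases before it, and both read as the same 8 letters as in Fgf21. Iars rose, and the value of Tars, 0.10, did not pass the threshold. No match says only that these letters are not in the window.

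A motif was also searched with the mitochondrial enzymes in view. GCATGCGC, the binding motif of NRF1, a factor known for nuclear genes of mitochondrial function, was searched on both strands. It reads almost the same on both, so 1 site can match more than once. It was in Wars2, Rars2 and Vars2, 3 of the 14 mitochondrial genes with an entry, in none of the 13 other members with one, and in 2.71% of all promoters. These windows are shown as the mitochondrial counterpart, whose genes were not called.
Wars2 (chr3:99140996-99141063, plus strand): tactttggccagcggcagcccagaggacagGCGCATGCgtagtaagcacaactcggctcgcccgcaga
Rars2 (chr4:34614876-34614943, plus strand): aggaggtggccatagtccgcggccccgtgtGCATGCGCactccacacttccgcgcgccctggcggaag
Vars2 (chr17:35667601-35667668, minus strand): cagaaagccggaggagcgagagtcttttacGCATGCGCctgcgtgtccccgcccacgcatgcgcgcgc
In all 3 the match lies within the last 64 bases before the start. Vars2 holds a second match 20 bases before the start, in lower case in its line. The ETS motif CCGGAAGT was in Aimp1, Rars2 and Farsa (3.89% of all promoters), and the cyclic AMP response element TGACGTCA was in 0 of the 27 (1.79% of all promoters).

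Levels per transcript length, in TPM, which also sets each library to the same total, spread widely over the 34 genes. Lars2, the mitochondrial leucine enzyme, was highest at 908 ± 279 TPM (SD, n = 12 mice), followed by Sars at 204 ± 16.9 and Nars at 191 ± 15.3 TPM. The Lars2 counts moved over the libraries with those of Gm26924, a noncoding gene (Pearson's r = 0.97, described below). Whether the Lars2 level holds reads from other sequence was not tested. The ranges of Sars (168 to 225 TPM) and Nars (162 to 219 TPM) overlapped, and the next gene, Kars, was at 77.9 ± 3.80 TPM. The lowest were Pars2 at 4.29 ± 0.768, Ears2 at 4.003 ± 0.357 and Wars2 at 3.80 ± 0.545 TPM, which overlapped with each other. The scaffolds were at 61.7 (Aimp1), 30.7 (Eef1e1) and 23.3 TPM (Aimp2).

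Cytosolic enzymes were mostly above their mitochondrial counterparts. The median level of the 15 cytosolic genes was 2.75 times that of the 16 mitochondrial genes, and 2.66 to 3.61 times within single mice. Among pairs in which both genes are members, the ratio for 1 amino acid ran from Nars over Nars2, at 20.5 ± 3.52 in WT and 19.6 ± 2.02 in P278KY mice (SD, n = 6 each), to Lars over Lars2, at 0.0293 ± 0.0195 and 0.0309 ± 0.00775. Sars over Sars2 was close to the former, at 18.2 ± 1.32 and 18.9 ± 2.08. The ratio of Lars to Lars2 carries the limit given above for the Lars2 level. With a comparison gene, Wars over Wars2 was 19.01 ± 2.21 in WT and 24.9 ± 2.87 in P278KY mice. Near 1 was Tars over Tars2, at 1.29 ± 0.0787 and 1.42 ± 0.0616. Cars over Cars2 was 3.15 ± 0.636 in WT and 4.39 ± 0.660 in P278KY mice, and the genotypes overlapped (2.48 to 3.95 and 3.48 to 5.29). The subunits of the phenylalanine enzyme were not level: Farsa over Farsb was 0.624 ± 0.0402 in WT and 0.646 ± 0.0466 in P278KY mice.

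**Figure D3:**
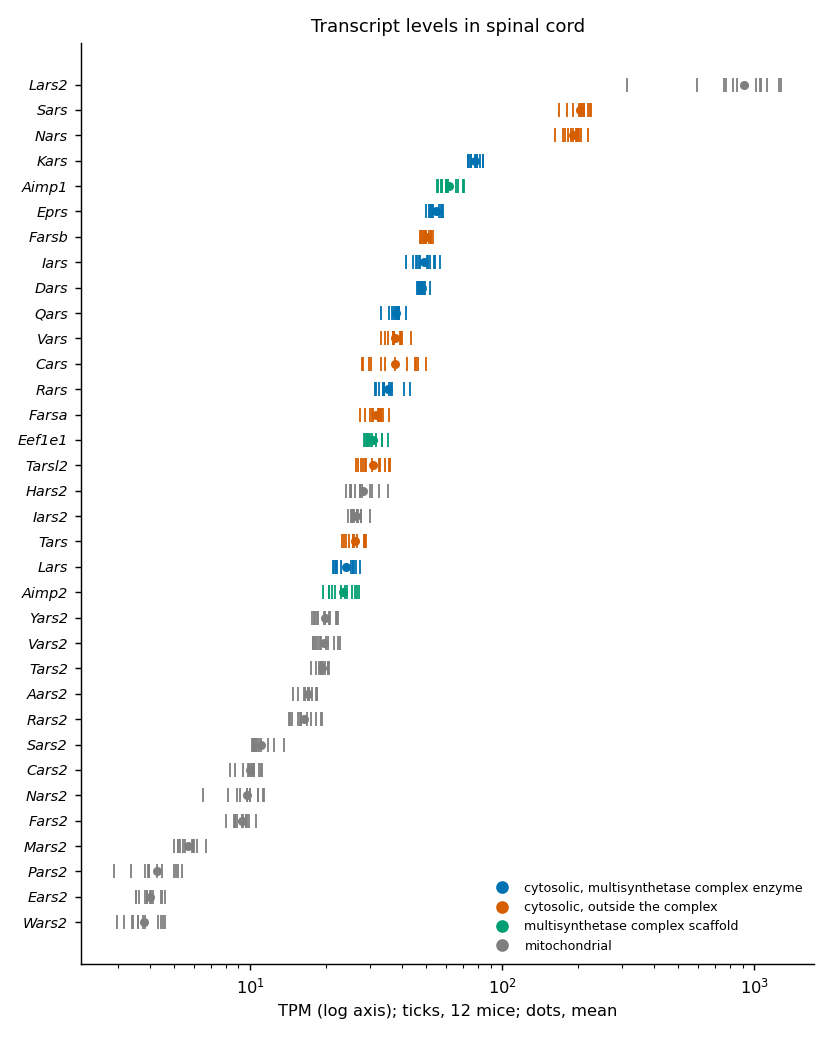
TPM of each of the 34 genes on a log axis, with 1 tick per mouse (12 mice) and a dot at the mean, coloured by role. Lars2 is highest and spreads most between mice; most other mitochondrial genes, in grey, lie below the cytosolic ones.

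On the TPM scale more of the genes passed the threshold. With limma on log2(TPM + 1), 9 of the 34 were called higher, against 7.55% of all tested genes. These were Cars, Lars and Iars with Eprs, Rars, Nars, Sars, Tars and Hars2. On this scale the median log2 change of all tested genes was 0.06, where it was -0.003 on counts, and 84.6% of all calls were higher, where 44.5% were on counts. Relative to that median, Cars was at 0.47, Hars2 at 0.19, Lars at 0.17, Iars at 0.16, Rars at 0.13, Nars at 0.12, and Sars and Tars at 0.11. Eprs was at 0.08.

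Nars2 and Hars2 differed most between the scales. Nars2, the mitochondrial asparagine enzyme, had a log2 change of -0.02 on counts and 0.22 on TPM (limma adjusted p = 0.161). Its RSEM gene length, the mean length of its transcripts weighted by their abundance, was 2394 ± 240 bases in WT and 2125 ± 221 in P278KY mice (SD, n = 6 each), a log2 change of -0.17 (SE 0.09; limma adjusted p = 0.832). This length enters TPM but not CPM. Hars2, the only mitochondrial enzyme called on TPM, had a log2 change of 0.10 on counts and 0.25 on TPM (limma adjusted p = 0.0221). Its length was 1707 ± 24.3 bases in WT and 1617 ± 86.7 in P278KY mice (SD, n = 6 each). The log2 change of that length was -0.08 (SE 0.03), with a limma adjusted p = 0.738. Hars2 and Hars overlap at their starts on opposite strands of chromosome 18, and 2.78% of its 75-base stretches lie in Hars transcripts read from the other strand. The length, a readout of the isoform mix apart from abundance, varied in 23 of the 34 genes. None of the 23 was called for genotype, against 0.0178% of 11216 genes, and 1, Hars2, had an unadjusted p under 0.05 with limma, against 6.25%. For Cars the length was 2277 ± 104 and 2182 ± 113 bases, a log2 change of -0.06 (SE 0.04; limma adjusted p = 0.880).

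The genotype effect was also fitted within each sex. Cars was called in females (log2 change 0.37, SE 0.06; edgeR adjusted p = 0.0231) and in males (0.42, SE 0.06; edgeR adjusted p = 0.00624). No other member was called in either sex, where the share of all tested genes called was 0.573% in females and 1.55% in males. Without WT female 2, or P278KY female 3, 4 or 9, the call in females was lost. Lars was at 0.19 (SE 0.05) in females and 0.15 (SE 0.05) in males, and Iars at 0.17 (SE 0.04) and 0.12 (SE 0.04).

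No member had an interaction of genotype and sex past the threshold, and neither did any tested gene with edgeR (0%; at an unadjusted p under 0.05, 3.70%), nor any member with DESeq2. The members with an unadjusted p under 0.05 were Aimp1 and Sars. Aimp1 had 28.6, 29.5 and 29.5 CPM in WT females and 34.4, 34.8 and 33.1 CPM in P278KY females. In males it had 32.2, 31.9 and 32.1 CPM in WT and 28.5, 34.5 and 30.6 CPM in P278KY mice. The difference between the sexes in log2 change was -0.26 (males minus females; edgeR unadjusted p = 0.0115, adjusted p = 0.9999). For Sars it was -0.16 (edgeR unadjusted p = 0.0369, adjusted p = 0.9999), with WT female 1, the most muscle-rich library, the lowest at 151 CPM. None of the 34 genes was called for sex itself, against 0.0890% of all tested genes. At an unadjusted p under 0.05 with edgeR, Pars2 (0.26, SE 0.10) and Tars2 (-0.08, SE 0.04) passed, male over female, against 8.95% of all tested genes.

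**Figure D4:**
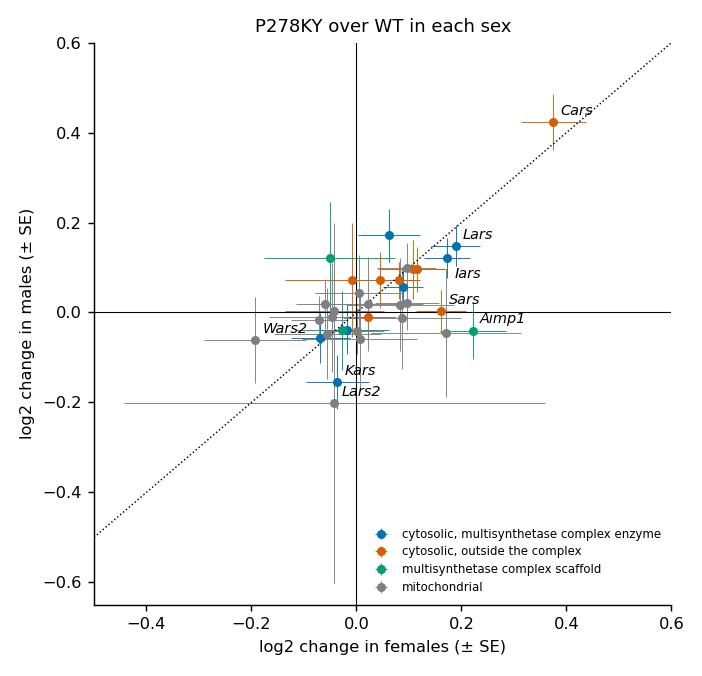
Log2 change in females (horizontal) against males (vertical) for the 34 genes, with 1 SE on each axis, coloured by role; the dotted line marks equal change. Cars stands apart at 0.37 and 0.42, and Aimp1 and Sars lie below the line.

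Lars2 varied between mice as no other member did. It ran from 616 CPM in WT female 2 to 2610 CPM in WT male 12, 4.23-fold, where the other 33 genes stayed within 1.51-fold. P278KY mice stood at 1138, 1576 and 2343 CPM (lowest, median, highest) and WT mice at 616, 2086 and 2610 CPM. The P278KY range lay inside that of WT, and the interval of the genotype effect was wide, from -0.72 to 0.48 on the log2 scale (edgeR adjusted p = 0.851). Lars2 lies on the plus strand of chromosome 9 (123366927 to 123462666).

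The genes most like Lars2 over the 12 libraries were not synthetases. The 10649 genes with a mean of at least 10 CPM were compared, after their values were seen, by Pearson's r of log2 CPM. Among them Gm15662, which has no position in GENCODE M21, came first (r = 0.99, Spearman's rho 0.97, and r = 0.97 without the 2 libraries farthest from its median). Next were Gm26924, a noncoding gene on chromosome 17 named Gm42418 in GENCODE M21 (r = 0.97, rho 0.96, and 0.97 without 2), Cdr1, on the X chromosome (r = 0.96, rho 0.93, and 0.95 without 2), and the nuclear RNA gene Malat1 (r = 0.93, rho 0.94, and 0.84 without 2). These values describe 12 libraries and share their depth and preparation. Gm26924 ran from 3848 CPM in WT female 2 to 17790 CPM in WT male 12, and Gm15662 from 43.4 to 163 CPM in the same libraries. With the 15 other mitochondrial members, r ran from -0.68 to 0.53, with a median of -0.28. No 75-base stretch of Lars2 transcripts is in a transcript of another GENCODE M21 gene on the same strand. Gm15662 was not found there by its identifier, so this search may not have covered it. The search took exact matches to annotated transcripts only, so it cannot show whether reads from other or similar sequence were counted in Lars2. What moves Lars2 and the RNAs named above together was not tested.

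**Figure D5:**
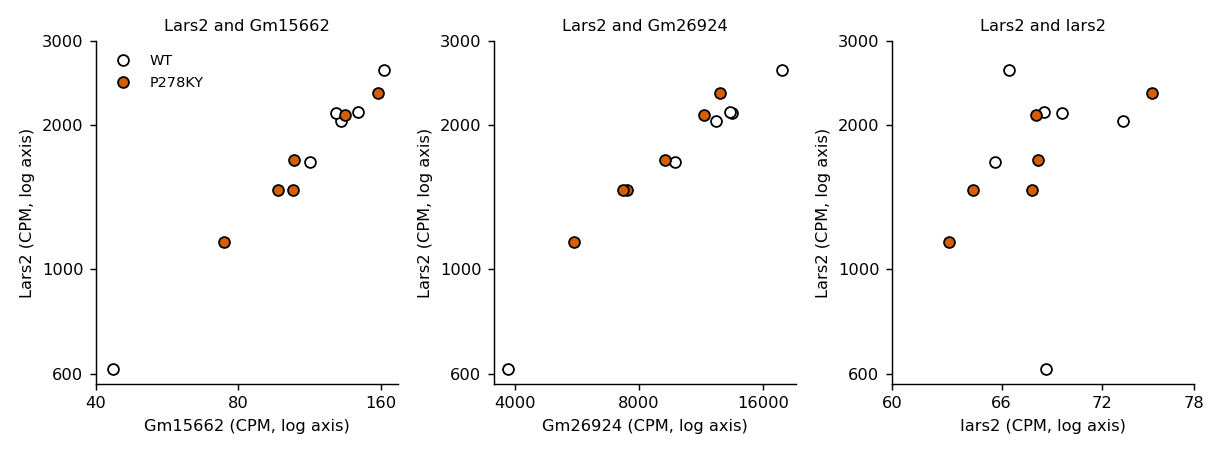
Lars2 against Gm15662, Gm26924 and the mitochondrial isoleucine enzyme Iars2 in 12 libraries, in CPM on log axes, WT in white and P278KY in orange. WT female 2 is lowest and WT male 12 highest for Lars2, Gm15662 and Gm26924, and both genotypes lie along the same band; Iars2 spans a narrow range with no such band.

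Reads shared between genes bear on a few members. Besides Iars, the genes with 75-base stretches in another gene on the same strand were Tarsl2 (0.71%), Eprs (0.42%) and Cars2 (0.13%). The opposite strand of other genes held 25.1% of the stretches of Aimp2 and 22.1% of those of Iars2, and counts of these genes could hold reads of their partners if strand was not used, a setting not given in the sources used here. No member lies on chromosome 6 with Gars.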

How the data were processed

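Per the labels' protocols, polyadenylated RNA of spinal cord was made into stranded libraries and sequenced as 75-base paired reads. Per the submitters' processing notes, Bowtie2 2.2.0 and RSEM 1.2.12 were used. The authors deposited 1 gene table per mouse; per the file headers it holds RSEM expected counts, TPM, FPKM and gene lengths. The authors' build and annotation: not given in the sources used here. Positions came from GENCODE M21 (GRCm38) by gene identifier (37607 of 38924 matched) and promoters from RefSeq (GRCm38.p6).

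Expected counts were rounded, filtered by filterByExpr over the 4 groups (17980 genes), scaled by TMM and tested with edgeR 4.0.16 in R 4.3.3 (robust quasi-likelihood; sex and genotype over all mice, or 4 group means for effects within a sex and the interaction). P-values were adjusted by Benjamini-Hochberg over all tested genes, at 0.05. CPM are counts per 1e+06 scaled counts. The 95% intervals are per gene, unadjusted. TPM and log2 gene length were tested with limma 3.58.1, and DESeq2 1.42.0 was an alternative. FPKM values, as deposited, served only to check levels. The edgeR test of genotype was tried on simulated counts, and the length test on simulated log2 lengths. The other tests were not tried on simulated data. Labels make each library a separate mouse. Replicate libraries differed by more than counting noise.

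The members and gene lists were chosen with earlier results of these data known. Named genes are every called member, the 3 largest and 3 smallest uncalled changes of each role group, and the 3 highest and lowest levels. Others named were chosen after their values were seen.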

Additional observations from a re-analysis of the deposited data

Results flagged for a closer look

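A single mouse stood far from the other 5 of its genotype, by Dixon's criterion at the 95% level, in 5 of the 68 sets of 6 examined (34 genes in 2 genotypes), where chance gives about 1 in 20, or 3.4. Iars was low in WT female 1 (92.56 CPM, the next WT mouse at 99.9), the library with most muscle RNA, and it was called without that mouse too. Eef1e1 was high in WT female 2 (16.57 CPM, next 14.5). Rars2 was low in WT female 10 (9.598 CPM, next 12.2). Vars2 was high in P278KY male 7 (26.75 CPM, next 25.3). Wars2 was low in P278KY female 3 (6.64 CPM, next 7.17).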

How the results depend on the processing

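The count of 3 called members, Cars, Lars and Iars, was the same with DESeq2's size factors, other filters, unrounded counts, no sex term, voom with sample weights and each mouse left out in turn (range 3 to 3); DESeq2's Wald test gave 4, adding Nars. With limma on log2(TPM + 1) and on log2(TPM + 0.1) it was 9 and 9; the cause was not tested. In sets added after the data were seen it was 1 without mice 1 to 4, 1 without mice 7, 10 and 11, and 1 without mice 9 to 12 (Cars each time), with fewer mice. Without mice 9 to 12 the adjusted p was 0.0125 for Cars, 0.242 for Lars and 0.190 for Iars, with 84 genes called of all tested. In females the count was 1, but 3 with DESeq2's Wald test, and 0 to 1 with a mouse left out. In males it was 1, but 2 with log2(TPM + 1), and 1 to 1 with a mouse left out. The cytosolic to mitochondrial ratio of levels ran from 2.73 to 2.81 with a mouse left out. Of 816 refits of single genes over 24 settings, 797 kept their side of the threshold, 13 gained a call, 6 lost one and 0 reversed a call; among values called under neither setting, 51 changed sign, in 19 genes. No paired analysis was possible because mouse numbers are not shared between groups. Intervals cover these mice only, and Pars2, with 107 to 217 expected counts per library, has the widest one apart from Lars2.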
